A study of Triticum aestivum with 14 samples.

Results

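A set of 4 genes of the wheat anther was followed through 14 bulk RNA-seq libraries of untreated central spikelets (Triticum aestivum, labelled N50, a label left unexplained here), all sampled 21 days after the terminal spikelet stage. They are a profilin gene on chromosome 3B (TraesCS3B02G311200), an actin-depolymerizing factor 11 gene on 6D (TraesCS6D02G229200), a guanosine nucleotide diphosphate dissociation inhibitor gene on 4B (TraesCS4B02G205900), which the deposited annotation places among Rab GDP-dissociation inhibitors, and a phosphatidylinositol 4-phosphate 5-kinase gene on 4B (TraesCS4B02G133100). These 4 of the 100591 genes in the table were chosen by their FPKM in the Anther libraries, where they were abundant, so their Anther levels relative to Ovary and Lemma are given as a description, without a test. The libraries form 5 groups, named Anther (n = 3), Ovary (n = 3), Lemma (n = 2), F5 (n = 3) and F1 (n = 3). The first 3 are organs of a fertile floret. F5 and F1 were taken as the samples of the stated comparison of fertile with abortive florets, and neither is named fertile or abortive in the labels.

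Actin and small GTPases organize growth at the tip of a pollen tube, the structure by which pollen carries sperm cells to the ovule. Profilin binds actin monomers and feeds them to growing filaments, and actin-depolymerizing factors sever and disassemble old filaments, so that together they keep the actin of the tip turning over. Phosphatidylinositol 4-phosphate 5-kinase makes phosphatidylinositol 4,5-bisphosphate, a membrane lipid that marks the growing tip, and GDP dissociation inhibitors recycle inactive small GTPases between membranes and cytosol. In Arabidopsis, distinct copies of profilin and of actin-depolymerizing factor serve mature pollen and vegetative tissue.

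Total counts per library ranged from 75016595 to 105526441. The labels name no plant for any replicate, so p-values reflect only how far libraries of a group differ, which may be partly technical. In bulk tissue, fewer cells of a type cannot be told apart from less RNA per cell. FPKM, the deposited unit of level, is scaled to gene length and library size.

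All 4 genes were present at their highest level in Anther and nearly absent from Ovary, Lemma and F5. The profilin gene (chromosome 3B, 499805263 to 499806156, minus strand, build not given in the sources used here) had 709, 775 and 725 FPKM in the Anther libraries, against 0.601, 0.218 and 0.0889 FPKM in Ovary and 0.899 and 0.365 FPKM in Lemma. In the florets it had 0.0772, 0 and 0.0412 FPKM in F5, against 3.93, 31.0 and 76.4 FPKM in F1. The Anther libraries differed by a coefficient of variation of 4.67%, whereas in F1 it was 98.7%, and no F1 library came below any F5, Ovary or Lemma library.

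The actin-depolymerizing factor gene (chromosome 6D, 320228058 to 320229328, plus strand) had 338, 340 and 325 FPKM in Anther, against 0.764, 0.57 and 0.732 FPKM in Ovary and 0.46 and 0.143 FPKM in Lemma. It was listed at 0, 0.115 and 0 FPKM in F5, against 1.26, 12.6 and 29.1 FPKM in F1. Its order was Anther, F1, Ovary, Lemma and F5 by group mean, and no library of any of these groups overlapped the next group in the order. The step from Lemma to F5 rests on 8 counts in Lemma replicate 3 against 6 in F5 replicate 2, too few to rank these groups.

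The GDP dissociation inhibitor gene (chromosome 4B, 438334623 to 438337845, plus strand) had 418, 447 and 440 FPKM in Anther, against 3.28, 0.91 and 0.116 FPKM in Ovary and 0.353 and 0.241 FPKM in Lemma. In F5 it had 0.0577, 0 and 0.00962 FPKM, against 2.29, 9.82 and 23.2 FPKM in F1. The highest Ovary library stood 28.2-fold above the lowest, so that Ovary overlapped both Lemma and the lowest F1 library.

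The phosphatidylinositol 4-phosphate 5-kinase gene (chromosome 4B, 172771703 to 172776731, plus strand) was the least abundant, with 18.2, 19.5 and 19.8 FPKM in Anther. It had no count in any Ovary, Lemma or F5 library, and 0.0599, 0.872 and 1.44 FPKM in F1, from 17, 254 and 410 counts. Over the summed libraries its Anther level in CPM (counts scaled to the library total) was at least 6436-fold the Ovary level and at least 4529-fold the Lemma level, with the group at 0 set to 3 counts over the group. Such bounds cover counting error only.

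**Figure D1:**
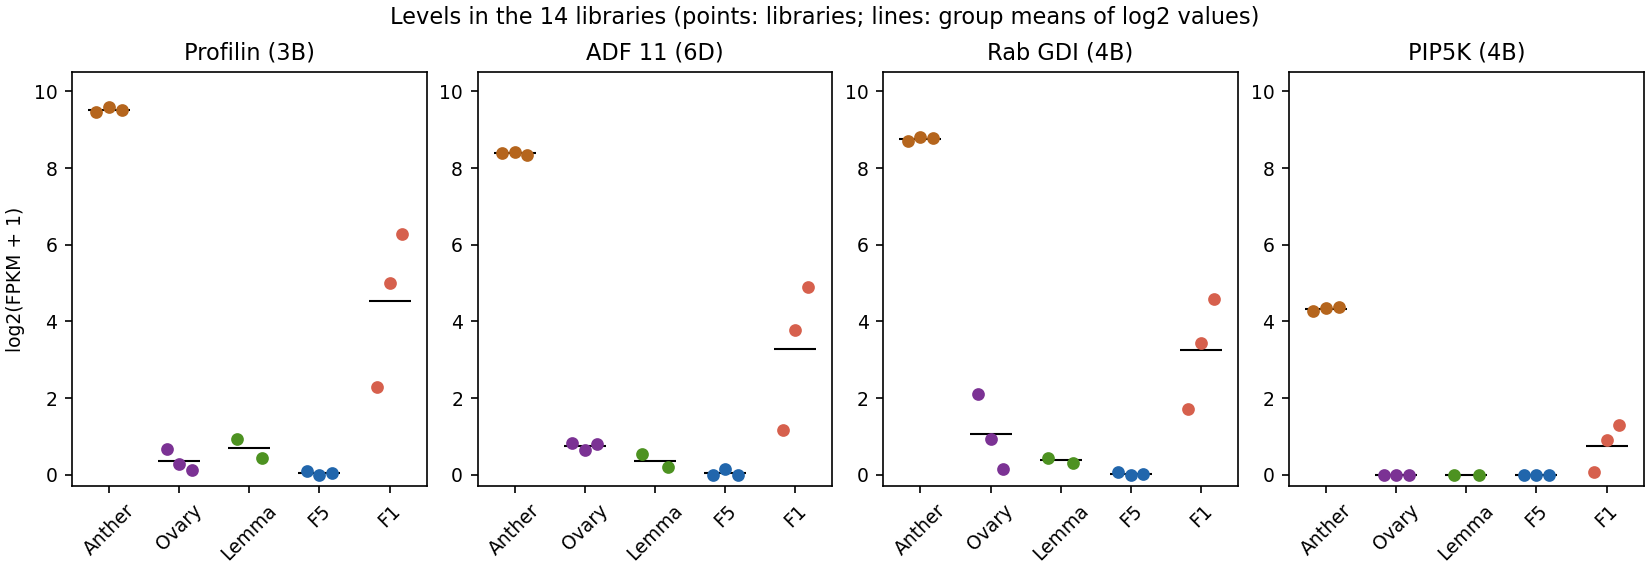
Level of each gene in the 14 libraries as log2(FPKM + 1), with 1 point per library and a line at the mean of the log2 values of each group (ADF, actin-depolymerizing factor; Rab GDI, the GDP dissociation inhibitor; PIP5K, the kinase). Every Anther library lies above every library of the other groups, F5 libraries lie at or near 0, and the 3 F1 libraries are spread widely between them.

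The comparison of F5 with F1 asks how fertile and abortive florets differ. All 4 genes were lower in F5, and for each of them no F5 library overlapped an F1 library. Every F1 library also lay above every F5 library for 1125 of the 1614 other anther-restricted genes described below. The separation is thus not particular to the 4 genes, and its share over all genes was not counted. The contrast of F5 with F1 did not choose the 4 genes, although the values were known when they were chosen. All 4 passed the filter on low counts, and did so only through F1, so their number among the genes called (9626 of 70221 genes tested were lower in F5, 13.7%) is not read as a result. The adjusted p-values that follow are given as a description too. Profilin averaged 0.0395 ± 0.0386 FPKM in F5 and 37.1 ± 36.6 FPKM in F1 (SD, n = 3 each), a log2 fold change of -9.37 (SE 1.41, adjusted p = 0.00401 by edgeR's quasi-likelihood test with Benjamini-Hochberg adjustment). The actin-depolymerizing factor gene averaged 0.0383 ± 0.0663 FPKM in F5 and 14.3 ± 14.0 FPKM in F1, a log2 fold change of -8.12 (SE 1.54, adjusted p = 0.00888, edgeR). The GDP dissociation inhibitor gene averaged 0.0224 ± 0.0309 FPKM in F5 and 11.8 ± 10.6 FPKM in F1, a log2 fold change of -8.65 (SE 1.24, adjusted p = 0.00347, edgeR). The kinase gene, with 0 counts in F5 and 681 in F1, was at least 303-fold lower in F5 (adjusted p = 0.0159, edgeR; 3 counts over the group as floor). With limma on log2(FPKM + 1) the kinase call was lost, at a change of -0.76 and adjusted p = 0.0671. Over the alternatives its adjusted p ranged from 1.80e-09 to 0.0671. Fertility cannot be told apart from anything else that differs between F5 and F1, stage included.

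The F1 libraries stood far apart from each other. Expressed as a share of its own Anther mean, profilin stood at 0.533%, 4.21% and 10.4% in F1 replicates 1, 2 and 3, and at 0.0105% or less in the F5 libraries. The actin-depolymerizing factor gene stood at 0.378%, 3.78% and 8.69% in the same F1 libraries, and at 0.0343% or less in F5. For the GDP dissociation inhibitor gene the F1 shares were 0.527%, 2.26% and 5.34%, and for the kinase gene 0.312%, 4.55% and 7.52%. The F1 library labelled replicate 3 was highest and replicate 1 lowest for all 4 genes, by 19.4-fold, 23.0-fold, 10.1-fold and 24.1-fold in the order given. These spreads let 1 library set the F1 mean: without F1 replicate 3, the mean shares of Anther were 2.37%, 2.08%, 1.39% and 2.43%, against 5.04%, 4.28%, 2.71% and 4.13% with it.

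The same F1 libraries differed in the same direction across other genes of the anther. Called higher in Anther than in both other organs were 10902 further genes, of which 1614 had at least 5 FPKM in Anther and at most 1% of that level in Ovary and in Lemma. These 1614 anther-restricted genes stood at a median of 0.505%, 3.03% and 6.96% of their Anther mean in F1 replicates 1, 2 and 3, and took 0.143%, 0.566% and 1.23% of all counts there. In F5 their median was 0% in all 3 libraries, and they took 0.0164% to 0.0306% of counts. F1 replicate 3 was highest and replicate 1 lowest for 1360 of the 1614 genes (84.3%), against 27.3% of the 70221 genes tested in the florets. Of the 1614, 1137 were among the genes tested there, so the shares cover unlike sets of genes. Of the 4 genes, profilin lay above the interquartile range of these genes in F1 replicate 3, and the other three lay within it.

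**Figure D2:**
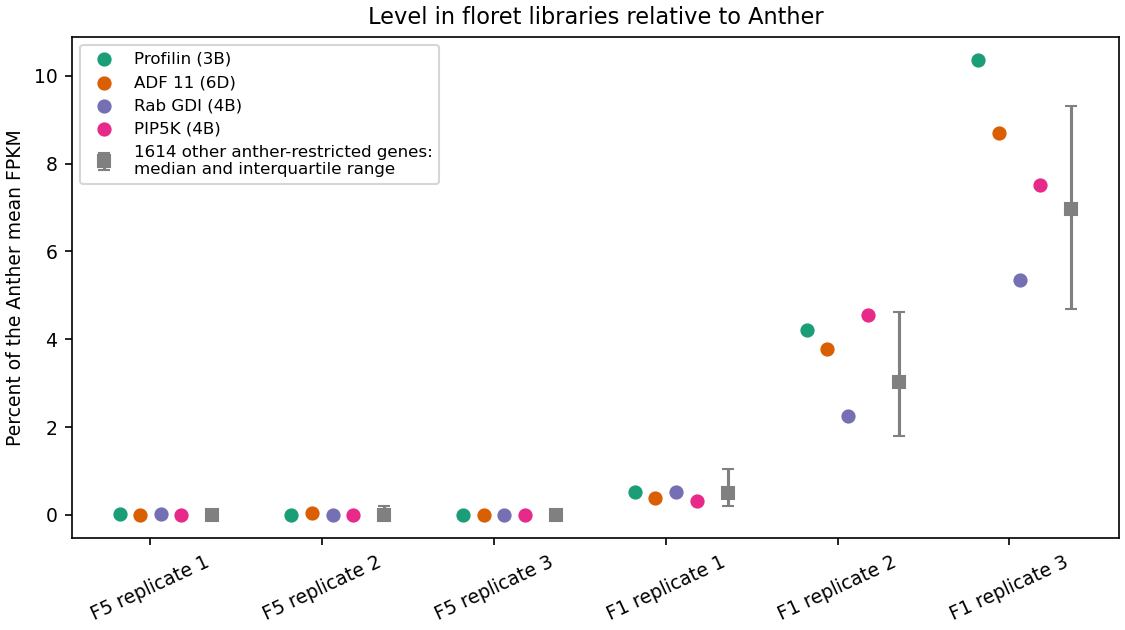
Level of each gene in the F5 and F1 libraries as a percent of its mean FPKM in Anther, with grey squares and bars for the median and interquartile range of the 1614 other anther-restricted genes. All points of F5 lie near 0, and in F1 replicate 3 the 4 genes lie between 5.34% and 10.4%.

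Markers of other tissues moved with the F1 libraries too. A list of 457 photosystem or light harvesting genes, which mark green tissue and of which 374 had counts in F1, summed to 40701, 26828 and 18684 CPM in F1 replicates 1, 2 and 3, against 33952 to 40015 in F5. A list of 470 core histone genes, which mark dividing tissue, summed to 5463, 7249 and 7574 CPM there, against 1323 to 1379 in F5. A list of 67 genes was sought as anther or tapetum markers, all of them annotated with strictosidine synthase activity, and 38 had counts in Anther. It summed to 398 to 413 CPM in Anther, against 277 to 336 in Ovary. In F1 replicates 1, 2 and 3 it summed to 201, 252 and 227 CPM, against 192 to 229 in F5. This list thus did not rise steadily from replicate 1 to 3, and its F1 values overlapped those of F5. The part of tissue makeup in the F1 spread was not tested.

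The proportions among the genes were steadier in Anther than in F1. The profilin level was 1.70, 1.73 and 1.65 times that of the GDP dissociation inhibitor gene in the Anther libraries, against 1.71, 3.15 and 3.29 times in F1. Profilin over the actin-depolymerizing factor gene was 2.10, 2.28 and 2.23 in Anther and 3.11, 2.45 and 2.63 in F1. In F1 replicate 1 the ratios rest on 246 counts of profilin, 48 of the actin-depolymerizing factor gene and 346 of the GDP dissociation inhibitor gene. They carry more counting error there than in Anther.

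Between Ovary and Lemma, a contrast the choice of genes did not use, no call was made for any of the 4 genes by edgeR (1 had an unadjusted p under 0.05), where 42.7% of 76348 genes tested were called (20.4% higher and 22.4% lower in Ovary). The kinase gene had no counts on either side and passed the filter on low counts only through Anther. Its lack of a call was thus fixed in advance, and it gives no fold. Profilin had 0.303 ± 0.266 FPKM in Ovary (SD, n = 3) and 0.632 ± 0.377 FPKM in Lemma (SD, n = 2), a log2 fold change of -1.61 (SE 0.63, adjusted p = 0.0623, edgeR). That gene was called lower in Ovary without Ovary replicate 1 (log2 fold change -2.59, adjusted p = 0.00535), without Lemma replicate 3 (-2.11, adjusted p = 0.0488) and by the DESeq2 Wald test (-1.72, adjusted p = 0.0109), with a range of 0.00535 to 0.44 over the alternatives. The actin-depolymerizing factor gene gave 0.54 (SE 0.36, adjusted p = 0.236, edgeR), passed without Lemma replicate 1 (1.48, adjusted p = 0.00519) and was at -0.02 without Lemma replicate 3. The GDP dissociation inhibitor gene gave 1.70 (SE 1.06, adjusted p = 0.211, edgeR) and passed without Ovary replicate 3 (2.24, adjusted p = 0.0148). The anther-restricted genes took 0.026%, 0.015% and 0.013% of counts in Ovary replicates 1, 2 and 3, and 0.0191% and 0.0101% in Lemma replicates 1 and 3. Ovary replicate 1 and Lemma replicate 1 were thus the libraries of their organ with most of those counts and also with most profilin and GDP dissociation inhibitor. In F5 this did not hold. There replicate 2 had the largest share (0.0306%) but 0 counts of those genes, and 6 of the actin-depolymerizing factor gene. The part of anther RNA in these low values was not tested.

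Each of the 4 families held copies that were higher in Anther than in both other organs and copies that were not. Homoeologs are nearly identical and how the authors' counting divided shared reads is not given, so the values of single copies are uncertain. Copies are called anther-enriched where they were higher in Anther than in Lemma (51.9% of 76348 genes tested were called, 25.2% higher and 26.7% lower) and than in Ovary (43.5% called, 21.9% higher and 21.7% lower). Both held for 10906 of the genes tested (14.3%), the share to set beside the family counts below.

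Of 10 profilin genes, 5 were abundant in Anther: the 3B gene, TraesCS1A02G343400 (857 ± 48.1 FPKM), TraesCS1B02G356700 (771 ± 26.6 FPKM), TraesCS3A02G277000 (608 ± 32.9 FPKM) and TraesCS3D02G277200 (565 ± 26.7 FPKM; SD, n = 3 each). In F1 their means were 13.4 to 37.1 FPKM, and in Ovary, Lemma and F5 they were 0.033 to 0.9 FPKM. The 3D copy was named after its values were seen. The 7D and 7A genes, TraesCS7D02G101800 and TraesCS7A02G107400, named after their values were seen, showed the reverse order, with 50.1 ± 0.845 and 29.8 ± 1.07 FPKM in Anther, against 165 and 75.6 FPKM in Ovary and 142 and 70.2 FPKM in Lemma. Relative to Lemma their log2 fold changes in Anther were -1.74 and -1.48, both called lower. Summed over copies, the 5 anther-enriched profilin genes reached 3537 ± 165 FPKM in Anther and the other 5 genes 81.8 ± 1.22 FPKM. In F1 the anther-enriched sum ran from 16.1 to 256 FPKM and the sum of the others stayed between 250.3 and 255.7 FPKM.

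Of the other 27 actin-depolymerizing factor or cofilin genes, 11 were anther-enriched, at 6.72 to 430 FPKM in Anther. The highest of these were TraesCS2D02G408100 (430 ± 28.7 FPKM), TraesCS2A02G410700 (387 ± 32.9 FPKM) and TraesCS2B02G429500 (329 ± 25.5 FPKM), recognised by their annotated actin filament depolymerization. The family's 12 anther-enriched genes summed to 2346 ± 114 FPKM in Anther (SD, n = 3) and the remaining 16 to 215 ± 7.84 FPKM. In Lemma the sums were 1.41 and 730.4 FPKM, and in Ovary 3.45 and 709.5 FPKM, so that different copies made up most of the family total in Anther and in the other organs. The copies were split on these same libraries, which fixes part of this contrast in advance.

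Of the other 20 GDP dissociation inhibitor genes, 8 were anther-enriched, at 55.3 FPKM or more in Anther. The copies with the same description as the 4B gene on 4D and 4A, TraesCS4D02G206900 and TraesCS4A02G098400, also named after their values were seen, had 368 ± 2.04 and 348 ± 2.15 FPKM in Anther. The 12 copies that were not anther-enriched summed to 155 FPKM in Anther, 207 in Ovary, 148 in Lemma, 162 in F5 and 192 in F1.

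Of the other 28 phosphatidylinositol 4-phosphate 5-kinase genes, 12 were anther-enriched, at up to 18.5 FPKM in Anther. TraesCS2D02G546200 (18.5 ± 5.36 FPKM), TraesCS4A02G185600 (18.5 ± 0.229 FPKM) and TraesCS4D02G128000 (17.4 ± 0.603 FPKM) were the most abundant after the 4B gene. The 4A and 4D copies had at most 0.0133 FPKM as a mean in Ovary, Lemma or F5, whereas the 2D copy had 1.14 FPKM in Ovary and 0.701 FPKM in F5. The 13 anther-enriched kinase genes summed to 161 ± 5.63 FPKM in Anther (SD, n = 3), and the other 16 genes were at 57.3 ± 2.23 FPKM there.

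**Figure D3:**
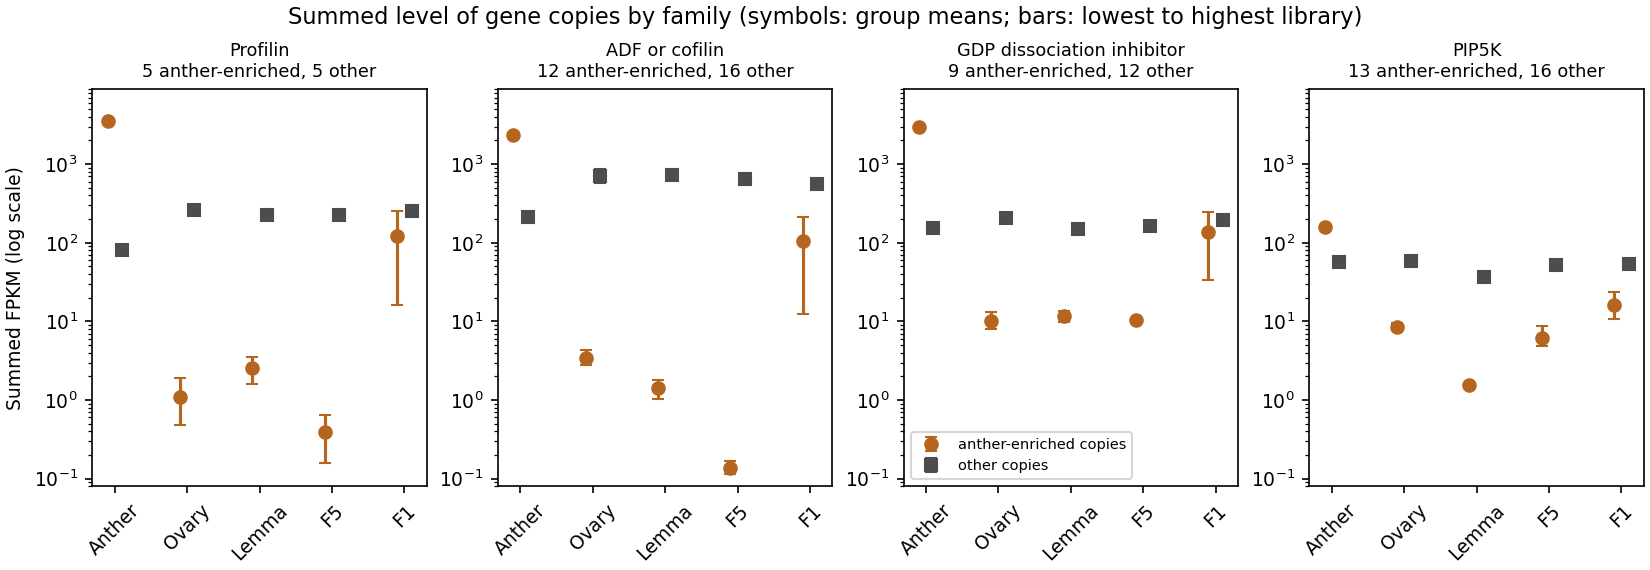
Summed FPKM of anther-enriched copies (circles) and of all other copies (squares) of each family, on a log scale, with group means and bars from the lowest to the highest library. Anther-enriched copies exceed the others in Anther and fall far below them in Ovary, Lemma and F5, and in F1 the profilin sums are 16.1 to 256 FPKM for anther-enriched and 250.3 to 255.7 FPKM for other copies.

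In F5 against F1, most of the anther-enriched copies of the families were lower and most of the remaining copies were not. Leaving out the 4 genes themselves, 4 of 4 tested anther-enriched profilin genes were lower in F5, as were 8 of 8 actin-depolymerizing factor genes, 5 of 8 GDP dissociation inhibitor genes and 6 of 11 kinase genes, beside the 13.7% of all genes tested. None of them was called higher in F5 (10.4% of all genes tested were). Genes with almost no counts in F5 pass the filter only through F1, so these shares are a description. Among the other copies, 3 of 5 profilin genes were lower in F5, 0 of 16 actin-depolymerizing factor genes, 0 of 12 GDP dissociation inhibitor genes and 3 of 16 kinase genes, and 0, 6, 1 and 2 were higher (edgeR). Of the counts of 0 here, the one of lower GDP dissociation inhibitor genes was 1 at an unadjusted p under 0.05 and 1 with limma on log2(FPKM + 0.1), and the others were 0 at that p and by DESeq2 and limma too. The 3 GDP dissociation inhibitor copies that were not called, named for that reason, lie on the group 5 chromosomes, at 55.3 to 83.1 FPKM in Anther (log2 fold changes of -0.69, -0.55 and -0.05 for TraesCS5B02G042400, TraesCS5A02G041100 and TraesCS5D02G048100). The number of kinase copies called lower was 9 in all, but 5 without F1 replicate 2, 4 without F5 replicate 1, 0 among genes with at least 5 FPKM and 1 with limma on log2(FPKM + 1).

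**Figure D4:**
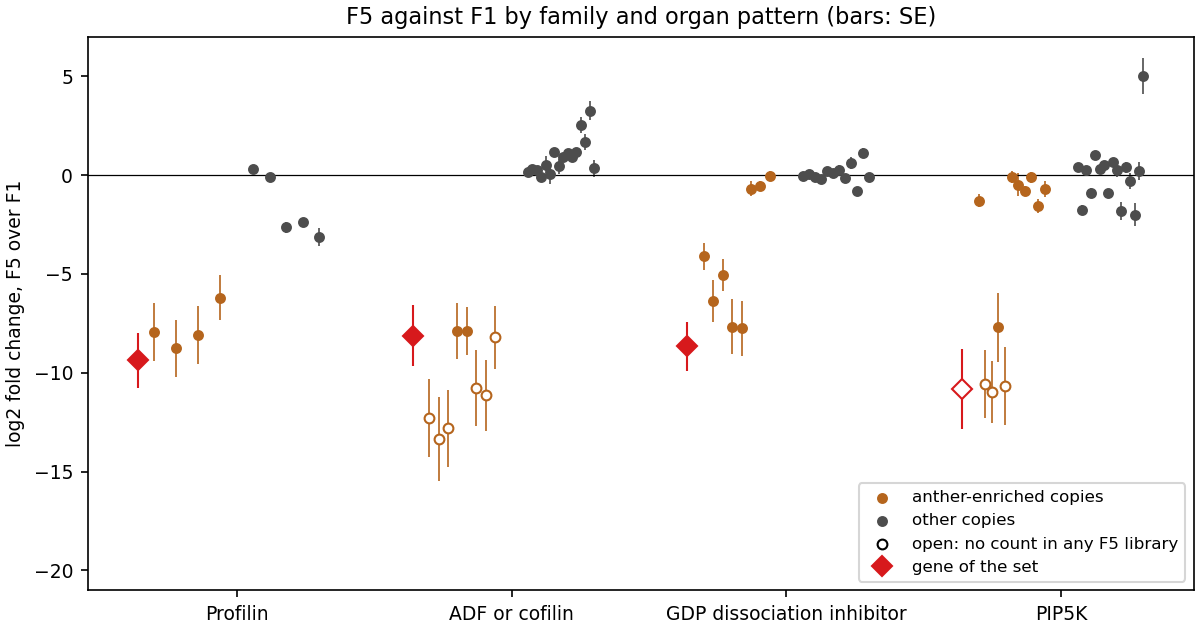
Log2 fold change of F5 over F1 with its SE for each tested copy of the 4 families, by whether the copy was anther-enriched. Diamonds mark the 4 genes, of which the 3 with counts in F5 lie at -9.37 to -8.12. These rest on 11 (profilin), 6 (actin-depolymerizing factor) and 14 (GDP dissociation inhibitor) counts over the F5 group, so their size is uncertain. Open symbols mark genes with no count in F5, whose fitted values depend on the prior count and are not a size of change.

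Other genes of actin turnover and tip growth were counted from lists of names and ontology terms. Over all genes tested, 25.2% were higher and 26.7% lower in Anther than in Lemma, 21.9% and 21.7% than in Ovary, and in F5 10.4% were higher and 13.7% lower than in F1. Listed genes with almost no counts in F5 pass the filter only through F1, so the shares for F5 against F1 are a description. The actin list matched only names and descriptions, which 15.2% of the 100591 genes have, so other actin genes could be missing from it. None of the 3 genes described as actin, the filament protein itself, was called higher in Anther by edgeR. TraesCS5B02G124100 had 15.3 FPKM in Anther, 69.3 in Ovary and 201 in Lemma, and TraesCS1D02G020000 had 17.9, 71.4 and 23.0 FPKM. Of the 3, 1 was lower and 0 higher in Anther than in Lemma, and 3 were lower than in Ovary. At an unadjusted p under 0.05, 1 was higher than in Lemma, which the DESeq2 Wald test and limma on log2(FPKM + 0.1) called and limma on log2(FPKM + 1) did not. In F5 against F1, 0 of them were called (edgeR; adjusted p = 0.0247 for TraesCS5B02G124100, whose log2 fold change of 0.76 was under 2-fold). At an unadjusted p under 0.05 there were 2, and DESeq2 and limma called 0.

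Of 113 genes for actin nucleation, bundling or capping, 53 were higher and 21 lower in Anther than in Lemma (46.9% and 18.6%, beside 25.2% and 26.7% of all genes; median log2 fold change 0.80, against 0.02 over all genes). Against Ovary 42 were higher and 23 lower (37.2% and 20.4%, beside 21.9% and 21.7%; median 0.44, against -0.03 over all genes), and in F5 against F1 8 of 111 were higher (5 without F5 replicate 3) and 14 lower (7.21% and 12.6%, beside 10.4% and 13.7%; median -0.04, against -0.05 over all genes). TraesCS4B02G152700 and TraesCS4D02G163700, the highest in Anther at 110.4 and 96.3 FPKM, had 9.03 and 4.55 FPKM in F5 and 10.9 and 6.10 FPKM in F1. Myosin genes, for the motors that move along actin, numbered 35, of which 10 were higher and 7 lower (12 without Lemma replicate 3) in Anther against Lemma (28.6% and 20%, beside 25.2% and 26.7% of all genes; median -0.15, against 0.02). Against Ovary, 12 were higher and 1 lower (34.3% and 2.86%, beside 21.9% and 21.7%; median 0.75, against -0.03). In F5, 4 myosin genes were higher and 5 lower than in F1 (11.4% and 14.3%), near the 10.4% and 13.7% of all genes, with a median of 0.55, against -0.05. TraesCS7D02G190300 (33.3 FPKM in Anther) and TraesCS7B02G094100 (24.4 FPKM) had log2 fold changes of -0.51 and -0.92 in F5 against F1, not called. Without F5 replicate 3, the gene on 7B was called lower (-1.16, adjusted p = 0.0494, edgeR).

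Of 149 exocyst genes, whose complex tethers secretory vesicles, 35 were higher and 66 lower in Anther than in Lemma (23.5% and 44.3%, beside 25.2% and 26.7% of all genes; median -0.98, against 0.02). Against Ovary, 36 were higher and 38 lower (24.2% and 25.5%), near the 21.9% and 21.7% of all genes (median -0.35, against -0.03). In F5, 2 of 129 were higher and 15 lower than in F1 (1.55% and 11.6%, beside 10.4% and 13.7% of all genes; median -0.01, against -0.05), with 8 lower without F1 replicate 2 and 9 without F5 replicate 1. TraesCS4D02G112900, of the Exo70 family, had 27.7 FPKM in Anther against 0.47 in Ovary and 0.704 in Lemma, and TraesCS6D02G284400 had 25.1 FPKM in Anther against 12.9 and 6.64. Only 1 gene matched the Rab GTPase list (TraesCS3B02G324300), at 4.66 FPKM in Anther, 21.8 in Ovary and 8.56 in Lemma.

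Pectin modification enzymes alter the stiffness of the tube wall. Of their 194 genes, 91 were higher and 30 lower (19 without Lemma replicate 3) in Anther than in Lemma (46.9% and 15.5%, beside 25.2% and 26.7% of all genes). The median was 1.30, or 1.26 with genes at 0 in an organ set to their bound, against 0.02 over all genes. Against Ovary, 74 were higher and 66 lower (38.1% and 34.02%, beside 21.9% and 21.7%; median -0.02, against -0.03). In F5, 17 of 156 were higher and 51 lower than in F1 (10.9% and 32.7%, beside 10.4% and 13.7% of all genes; median -0.68, against -0.05). TraesCS6A02G159000 had 210 ± 16.5 FPKM in Anther and 0.142 in Ovary, and TraesCS7D02G399000 had 190 FPKM and 0.0865 FPKM. These polygalacturonase genes were lower in F5, with 0 and 0.0259 FPKM in F5 and 4.11 and 3.78 FPKM in F1 (adjusted p = 0.0161 and 0.0107, edgeR). Both passed the filter on low counts only through F1, so the calls are given as a description. Neither call held with limma on log2(FPKM + 1), at adjusted p = 0.0614 and 0.0520. Of 134 pollen tube or pollen development genes, 62 were higher and 17 lower in Anther than in Lemma (46.3% and 12.7%, beside 25.2% and 26.7% of all genes; median 0.91, against 0.02). Against Ovary, 51 were higher and 15 lower (38.1% and 11.2%, beside 21.9% and 21.7%; median 0.54, against -0.03). In F5, 6 of 127 were higher and 25 lower than in F1 (4.72% and 19.7%, beside 10.4% and 13.7% of all genes; median -0.39, against -0.05). The most abundant, TraesCS6A02G092300 and TraesCS6D02G081200, had 301 and 273 FPKM in Anther, yet also 99.4 and 78.8 FPKM in Ovary and 67.2 and 64.6 FPKM in F5.

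The genes most like each of the 4 in pattern were ranked by Pearson's r of log2(FPKM + 1) across the 14 libraries, among 6526 described genes with a group mean of at least 5 FPKM. These r values mostly reflect the gap between Anther and the rest. Nearest to profilin were the 1B profilin copy (r = 0.999), a peroxidase gene on 4D (TraesCS4D02G268200, r = 0.998) and a defensin gene on 2B (TraesCS2B02G062100, r = 0.997). Nearest to the actin-depolymerizing factor gene were peroxidase genes on 4A, 4B and 4D (TraesCS4A02G036100, TraesCS4B02G268900 and TraesCS4D02G268200, each r = 0.998). Nearest to the GDP dissociation inhibitor gene were its 4D copy (r = 0.998), an alpha-1,4 glucan phosphorylase gene on 3A (TraesCS3A02G366300, r = 0.992) and the 4A peroxidase gene (r = 0.992). The kinase gene lay nearest to a chloride channel gene on 3D (TraesCS3D02G379600), a kinase copy on 5D (TraesCS5D02G140700) and a calcium-transporting ATPase gene on 3D (TraesCS3D02G470100), at r = 1.00 after rounding. Of 35327 genes compared, 1163 reached r of at least 0.99 with the kinase gene and 70 with the GDP dissociation inhibitor gene.

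The neighbours of the 4 genes, 6 for each, are too few to say whether the genes lie in clusters of anther-enriched genes. Neighbours were taken by position, whether tested or not. Among the nearest 3 genes on either side, 0 of 6 were anther-enriched for profilin, 1 of 6 for the actin-depolymerizing factor gene, 1 of 6 for the GDP dissociation inhibitor gene and 0 of 6 for the kinase gene, against 14.3% of 76348 genes tested in the organs. No annotated gene overlapped any of the 4, and the nearest annotated gene lay 443 bp away, beside the actin-depolymerizing factor gene.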

How the data were processed

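Per the labels' protocols, Trizol extracts that scored over 7.0 for RNA integrity went into the libraries. The deposited table gives the authors' raw counts per gene and the authors' FPKM values for 14 libraries and 100591 genes. The submitters' processing notes name Bowtie 0.12.2 and mm8, a mouse build, so the wheat aligner, build and annotation are taken as not given in the sources used here. The number of gene IDs that matched the RefSeq annotation was 0.

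Counts were scaled by TMM, filtered with filterByExpr and fitted over all genes with robust quasi-likelihood models in edgeR 4.0.16 (R 4.3.3): F5 and F1 in 1 fit, Anther, Ovary and Lemma in another. Called means a two-sided p under 0.05 after Benjamini-Hochberg adjustment together with a change of 2-fold or more. The SE is the log2 fold change divided by the square root of F. Alternatives used DESeq2 1.42.0, limma 3.58.1 on log2(FPKM + 1) and log2(FPKM + 0.1), other scaling and filters, libraries left out and a replicate block. The tests were tried on simulated counts.

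The genes and lists were chosen with earlier results of these data known. Lists matched names and descriptions, or ontology text where a gene had neither. The actin and core histone lists used no ontology text. The actin nucleation list was trimmed of succinate-CoA ligases, whose names hold the letters of formin, after its text was seen. The naming rule took, beside the 4 genes, the 3 family copies and 2 genes of each other list highest in Anther, and the 3 described genes nearest in pattern; others are said to be named after their values were seen. Some genes that this rule took, and the list of 1 signalling pathway, are not reported here. The photosystem and core histone lists were used as markers.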

Additional observations from a re-analysis of the deposited data

How the results depend on the processing

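In F5 against F1 the direction of all 4 genes held under every alternative run, and so did the calls of the profilin (14 alternatives), actin-depolymerizing factor (14) and GDP dissociation inhibitor genes (14). In the reported fit all 4 passed the filter on low counts only through F1, so calls that held describe the fits and add no support. The kinase call (13 alternatives) was lost with limma on log2(FPKM + 1), at -0.76; the gene has no value among genes with at least 5 FPKM. Leaving out a library gave log2 fold changes of -10.2 to -8.34 for profilin, -10.7 to -7.76 for the GDP dissociation inhibitor gene and -8.64 to -7.14 for the actin-depolymerizing factor gene. The last leaves aside the fit without F5 replicate 2, which holds all F5 counts of that gene. A fold fitted to an F5 group at 0, as for the kinase gene throughout, depends on the prior count and is not given. Without F5 replicate 1, the fit at -10.2 and -10.7, profilin kept 4 F5 counts and the GDP dissociation inhibitor gene 2, all in replicate 3.

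In Ovary against Lemma, leaving out a library gave -2.59 to -0.84 for profilin, -0.02 to 1.48 for the actin-depolymerizing factor gene (reversed, at -0.025, without Lemma replicate 3) and 0.17 to 2.24 for the GDP dissociation inhibitor gene; a lone Lemma library was assumed to vary like the other organs. Among the copies named for F5 against F1, TraesCS5D02G048100, at -0.05, was at 0.014 with the replicate block and between -0.25 and 0.28 with a library left out. Calls appeared for profilin with the DESeq2 Wald test (-1.72) and for the actin-depolymerizing factor gene with limma on log2(FPKM + 0.1) (1.09); the cause was not tested.

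Fewer genes were called among those with at least 5 FPKM, by construction: 3104 higher and 3218 lower in F5 against F1 (7332 and 9626 in the reported fit), 7058 and 8071 in Ovary against Lemma (15550 and 17069), 8691 and 9483 in Anther against Lemma (19240 and 20349), and 7991 and 7540 in Anther against Ovary (16687 and 16535). Limma on log2(FPKM + 1) called 3348 higher and 5833 lower in F5 against F1, 9020 lower in Ovary against Lemma, 12239 higher and 11632 lower in Anther against Lemma and 7928 higher in Anther against Ovary; limma on log2(FPKM + 0.1) called 25810 higher in Ovary against Lemma. Why was not tested. Of the counts over lists, 79 moved by over 1.5 times in F5 against F1 and 341 did not, and in Ovary against Lemma 68 moved and 412 did not.

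No pairing by replicate number was seen in F5 against F1. Same-numbered libraries deviated from their group means with r of 0.0152, 0.0281 and -0.142 across 79955 genes, and 0 of 3 F5 libraries correlated best with their own number. The labels name no plant, and these correlations cannot exclude that same-numbered libraries share one. With a replicate block, the log2 fold changes in F5 against F1 were -8.94, -8.07 and -8.24 for the first 3 genes in the order of the report, all 4 were still called, and 6193 genes were higher and 7641 lower. Counts under 20 per group, as in F5, limit how low a level can be told from 0.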
